A study of Mus musculus with 18 samples.

Results

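The proteasome is the barrel-shaped protease of the cell, and 49 genes of its subunits, assembly factors, and close regulators were followed here in FGF6-stimulated brown preadipocytes, out of 48023 genes in the count table. Members were protein-coding genes chosen by symbol: Psma, Psmc, Psmd, Psme, Psmf, and Psmg followed by a digit, Psmb1 to Psmb7, Psmb10, Pomp, and Nfe2l1. The rule uses symbols alone. Of the 49 members, 48 had enough counts for a test. The exception was Psma8, a testis form of an alpha subunit, which had a single count in all 18 libraries.

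The cells were immortalized murine brown preadipocytes, the undifferentiated precursors of brown fat cells, kept as a line that carries SV40 T antigen. They received vehicle or fibroblast growth factor 6 (FGF6), a secreted growth factor, for 4, 8, or 24 h, which made 6 groups with 3 libraries apiece. The comparison asks what FGF6 does to the transcriptome of precursor cells before any differentiation, at an early, a middle, and a late time. No mutation, transgene, or second agent separated the groups, and the labels do not say whether the 3 libraries of a group came from separate cultures, so that the tests measure the spread between libraries, which may be technical. Because RNA was taken from the whole culture, fewer cells that use a gene and less of its RNA per cell cannot be told apart. Library totals ranged from 24327816 to 33471980 counts. Of 8 preadipocyte and stromal markers, 7 were detected in every library, whereas Dlk1, a preadipocyte marker, was at 0 counts in all 18. Of the adipocyte markers, Lep was at 0 throughout, and Adipoq, Plin1, and Cfd, products of mature fat cells, stayed below 2 CPM (counts scaled to a common TMM-normalized library size). Ucp1, the uncoupling protein of brown fat cells, stayed below 1 CPM. It was at 0 counts in all vehicle groups and with FGF6 at 4 and 8 h. With FGF6 at 24 h, its group mean was 0.739 CPM, with 25 counts at most in a library. Fabp4, a fatty acid carrier of fat cells that precursors can also express, was the exception, at 63.3 to 173 CPM over all libraries, with group means at 24 h of 160.1 CPM in vehicle and 66.9 CPM with FGF6. The detected preadipocyte and stromal markers also differed at 24 h. Group means in vehicle and with FGF6 were 3107 and 443 CPM for Col1a1 and 693 and 134 CPM for Pdgfrb. They were 280 and 91.5 CPM for Pdgfra, 243 and 32.3 CPM for Ly6a, and 63.6 and 55.7 CPM for Thy1. Vim, at 3483 and 5244 CPM, and Cd34, at 16.5 and 43.0 CPM, were higher with FGF6. Vehicle library 3 at 24 h stood apart from its group, with a chi-square per degree of freedom over genes of 34.5 and 37.6 against the other libraries of its group, where all other pairs within groups had 2.34 to 7.05. Without it, 41 members were higher and 5 lower with FGF6 at 24 h, the same counts as with it, and the median log2 fold change was 0.39 in either case.

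In background, the 26S proteasome consists of a 20S core, built from rings of alpha and beta subunits with the proteolytic sites on Psmb5, Psmb6, and Psmb7, and of a 19S regulatory particle that recognizes, deubiquitinates, unfolds, and threads ubiquitin-tagged proteins into the core. Interferon-induced subunits can replace the catalytic ones to form the immunoproteasome, which favors peptides for MHC class I presentation. The subunit genes are known to share a transcription factor, NFE2L1 (also called NRF1 or TCF11), which is held at the endoplasmic reticulum membrane, is degraded while proteasomes are abundant, and, once released, binds antioxidant response elements together with small MAF proteins. In brown fat, NFE2L1 is known for maintaining proteasome function during cold adaptation.

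Promoters of the members were searched for short motifs, among them the letters that NFE2L1 reads together with small MAF proteins. RefSeq promoters (GRCm38.p6, 250 bases before to 50 bases after a transcript start) could be matched by symbol for 41 of the 49 members, with 48 promoters in all. The core of the antioxidant response element, TGACNNNGC, was searched on both strands. It occurred in 12.5% of the 48 member promoters, compared with 14.3% of the 13620 promoters of tested genes and 12.4% of all 32851 promoters. The ETS-type motif CCGGAAGT, also searched on both strands, occurred in 22.9% of member promoters, compared with 7.67% of promoters of tested genes and 3.89% of all. CCAAT, the letters read by NF-Y, was present in 35.4%, 37.6%, and 37.4% of the same sets. The cyclic AMP response element TGACGTCA was present in 0%, 2.97%, and 1.79% of them. A promoter can hold several of these motifs, as those of Psmd12 and Psme4 did, and a match is a description, not a bound site. Windows of 30 bases are given for 6 members with CCGGAAGT, and for 4 with TGACNNNGC, with the matched letters in capitals (ACTTCCGG is the ETS-type motif read on the other strand), 5′ to 3′ on the strand of the gene:
Pomp (chr5:147860567-147860596, plus strand): cggaaggacgcACTTCCGGcggatggggcg
Psmc1 (chr12:100110162-100110191, plus strand): ttggtggatgcACTTCCGGcggtggcgatt
Psmc2 (chr5:21786711-21786740, plus strand): ggcgcggagctACTTCCGGtggggaagaga
Psmd6 (chr14:14120972-14121001, minus strand): cagagacgcgaCCGGAAGTcagactggcgg
Psmd12 (chr11:107479498-107479527, plus strand): gatgagcgggcgACTTCCGGtgcgagtgac
Psme4 (chr11:30771711-30771740, plus strand): gtggccccgccCCGGAAGTgacttgaggcc
Psmb5 (chr14:54618024-54618053, minus strand): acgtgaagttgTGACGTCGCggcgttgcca
Psmb6 (chr11:70525327-70525356, plus strand): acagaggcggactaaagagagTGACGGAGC
Psmc6 (chr14:45329586-45329615, plus strand): gccagccagtaGCTAAGTCAggcattgctc
Psmd12 (chr11:107479278-107479307, plus strand): tctGCTGTGTCAcatttgcccccctcagac

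In Pomp, Psmc1, Psmc2, Psmd6, Psmd12, and Psme4, which encode a chaperone, 4 subunits of the 19S particle, and an activator, the ETS-type letters lay before the transcript start, beginning 18 to 53 bases upstream of it in the windows printed. Psmc2 has a second promoter in the table, at its other start, in which the letters began 85 bases upstream. The other genes with a match were Psmd13, in which it began 6 bases before the start, and Psma6, Psme3, and Psmg3, in which it began at or after the start. The TGACNNNGC letters were found in Psmb5 and Psmb6, which are catalytic subunits, in Psmc6, Psmd9, and Psmd12, and in Psme4. The 10 members with the ETS-type letters were all higher with FGF6 at 24 h, with a median log2 fold change of 0.39. The 31 other members with a promoter had a median of 0.40, with 24 higher and 5 lower. The 6 members with the TGACNNNGC letters were likewise all higher, with a median of 0.41. For the 35 without them, the median was 0.40, with 28 higher and 5 lower. Of all genes tested, 35.9% were higher and 37.9% lower at that time.

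With FGF6, the proteasome genes rose, weakly at 4 h and broadly at 24 h. At 4 h, 22 of 48 members tested were higher and 5 lower at a false discovery rate (FDR) under 0.05, whereas 28.6% of all 15071 genes tested were higher and 34.2% lower. At 8 h, 37 members were higher and 6 lower, against 32.4% and 38.4% of all genes. At 24 h, 41 members were higher and 5 lower, against 35.9% and 37.9% of all genes. The median log2 fold change of the members was 0.10, 0.18, and 0.39 at the 3 times, and that of all genes tested was -0.05, -0.05, and -0.02. The rise at 4 h depended on the scaling of the libraries. Without normalization factors, the median of all genes at 4 h shifted by -0.10, and 24 rather than 38 of the 48 members had a positive fold change, so that the direction of the members as a group at 4 h flips in part with this choice, while their median still lay 0.15 above that of all genes under either scaling.

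The separation of the libraries was also counted, and at 4 h the members were apart about as often as all genes. At 4 h, all FGF6 libraries were above all vehicle libraries for 26 members and below for 5, against 30.1% and 36.1% of all genes tested. At 8 h, these counts were 37 and 7, against 34.2% and 39.6%. At 24 h, they were 42 and 5, against 36.7% and 38.1%.

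**Figure D1:**
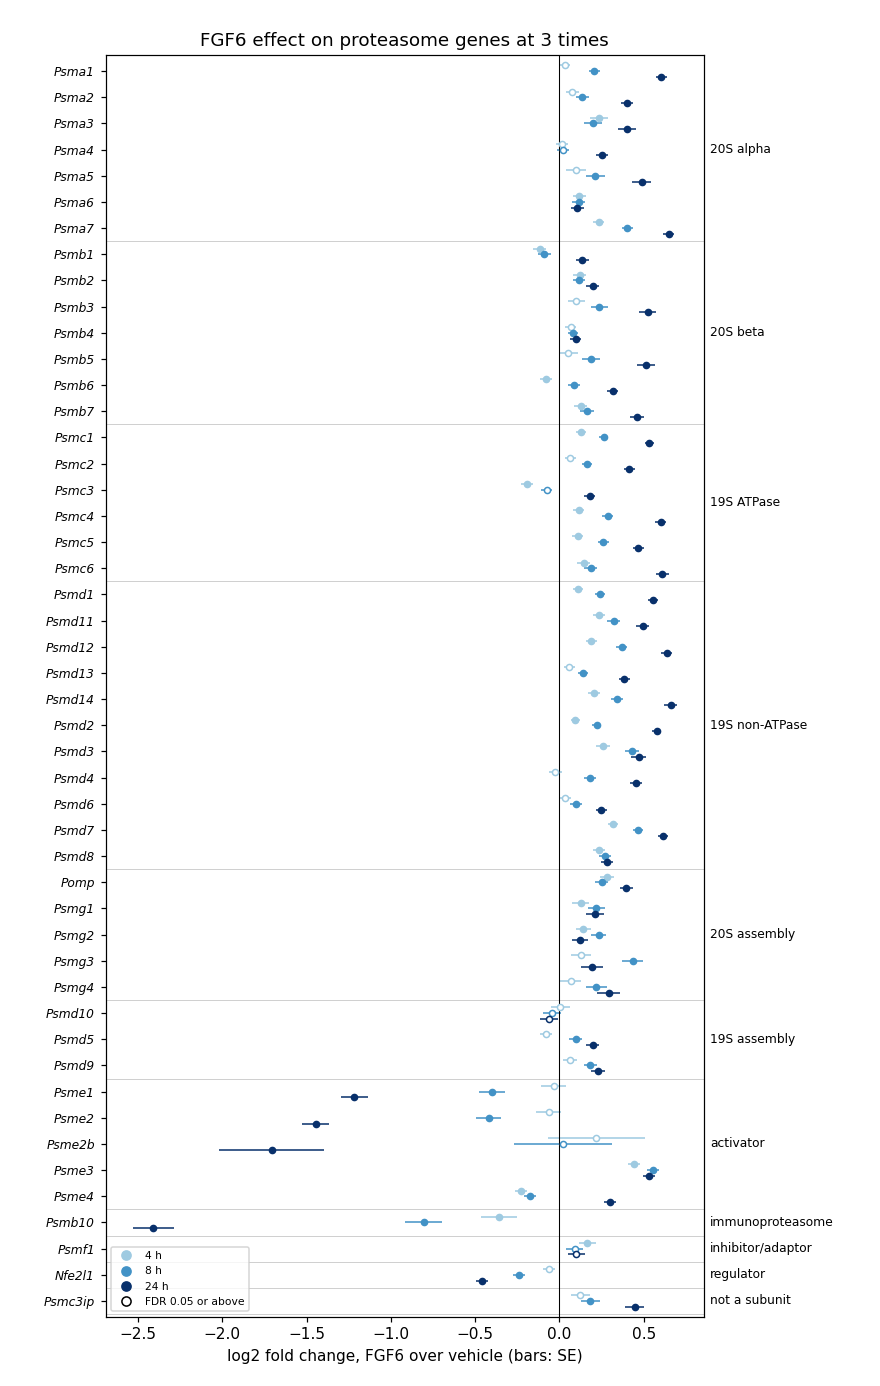
Log2 fold change, FGF6 over vehicle, of the 48 members tested (rows, by class) at 4, 8, and 24 h (light to dark blue). Bars are standard errors of 3 against 3 libraries, and open points had an FDR of 0.05 or above. All 31 subunits of the 20S and 19S particles lie to the right of 0 at 24 h, whereas Psmb10, Psme1, Psme2, Psme2b, and Nfe2l1 lie to the left.

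The 31 subunits of the 20S and 19S particles moved one way at 24 h. At that time, 31 of 31 were higher with FGF6, by 0.10 to 0.66 on the log2 scale with a median of 0.47, and the FGF6 libraries of every one of them were above all vehicle libraries. At 8 h, 28 were higher and 1, Psmb1, was lower. At 4 h, 17 were higher and 3, Psmc3, Psmb1, and Psmb6, were lower. In 28 of the 31, the estimated fold change grew from each time to the next. Tested as a difference in the FGF6 effect, this growth was called in 13 of 31 from 4 to 8 h. From 8 to 24 h, it was called in 26. Over these intervals, the effect became more positive in 15.5% and 22.6% of all genes tested. Of all genes tested, 28.6%, 32.4%, and 35.9% were higher and 34.2%, 38.4%, and 37.9% lower at 4, 8, and 24 h. At 24 h, all FGF6 libraries were above all vehicle libraries in 36.7% of genes tested. The counts within classes below are to be read against these shares.

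Summed over the 14 core genes, Psma1 to Psma7 and Psmb1 to Psmb7, the level at 24 h was 1901, 1889.6, and 1924 CPM in vehicle and 2321, 2411, and 2368 CPM with FGF6. For the 17 genes of the 19S particle, the sum at 24 h was 2928, 2932, and 2924 CPM in vehicle and 4081, 4124, and 4113 CPM with FGF6. Both sums were higher in every FGF6 library, by 24.2% for the core and 40.2% for the 19S particle. At 8 h, the differences were 9.26% for the core and 18.4% for the 19S particle, and at 4 h they were 4.64% and 8.84%. At 4 h, the core sum was 1530.4, 1542, and 1615 CPM in vehicle and 1649.6, 1639.95, and 1616 CPM with FGF6. The lowest FGF6 library was above the highest vehicle library by less than 1 CPM, so that the groups were barely apart. As a share of all counts, with no normalization factors, the core made up 0.160% ± 0.00364 (SD, n = 3) of counts in vehicle and 0.156% ± 0.00183 with FGF6 at 4 h, so that its direction at 4 h turned with the scaling. At 24 h, these shares were 0.188% ± 0.00225 and 0.233% ± 0.00431.

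**Figure D2:**
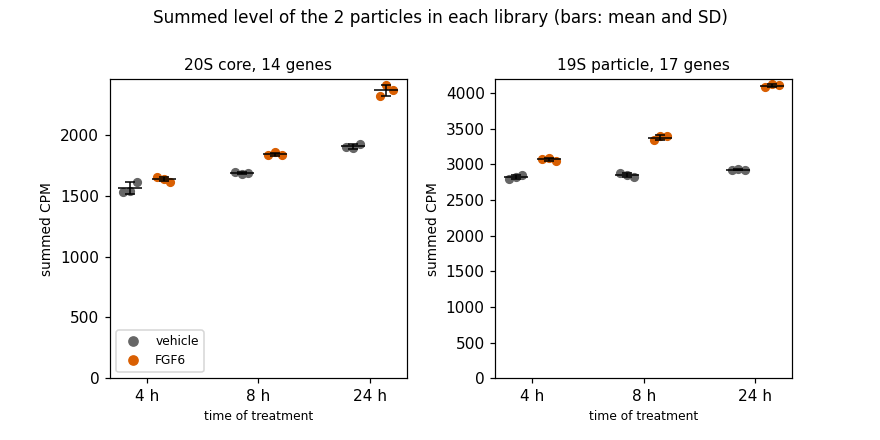
Summed CPM of the 14 genes of the 20S core (left) and the 17 genes of the 19S particle (right) in each library, vehicle in gray and FGF6 in orange, with mean and SD of 3 libraries. The FGF6 libraries lie above the vehicle libraries at 8 and 24 h in both panels, and in the core panel at 4 h the highest vehicle library lies almost level with the lowest FGF6 library.

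Of the 7 alpha subunits, which form the outer rings of the core and gate its entrance, 3 were higher at 4 h, 6 at 8 h, and 7 at 24 h. Psma7 (chr2:180036374-180042433, minus strand, GRCm38) was among the 3 members with the largest increase at 24 h. Its level at 24 h was 199.8, 192, and 196 CPM in vehicle and 295, 315, and 311 CPM with FGF6. The groups did not overlap, and the log2 fold change was 0.65 ± 0.03, FDR = 1.9e-15 (± SE, edgeR quasi-likelihood test of 3 against 3 libraries with Benjamini-Hochberg adjustment). The SE came from the fit to all 18 libraries, in which the groups share the estimate of a gene's spread. Values after ± or FDR below are the same quantities unless marked SD. At 8 h, Psma7 was at 167, 165, and 161 CPM in vehicle and 221, 219.99, and 211 CPM with FGF6 (0.40 ± 0.03, FDR = 4.3e-11). The values at 4 h were 149.9, 155, and 152 CPM in vehicle and 182, 179, and 176 CPM with FGF6 (0.23 ± 0.03, FDR = 9.8e-07). Psma7 thus lay higher with FGF6 in every library at every time.

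Psma1 followed a later course. It differed by 0.03 ± 0.03, FDR = 0.47 at 4 h, by 0.21 ± 0.03, FDR = 5.5e-06 at 8 h, and by 0.60 ± 0.03, FDR = 1.3e-14 at 24 h. Psma6 showed no such growth, with log2 fold changes of 0.12, 0.11, and 0.11 at the 3 times, all past the threshold. Its change between 4 and 24 h was -0.01 ± 0.05, FDR = 0.88, and its call was lost at 4 h without vehicle library 2 (log2 fold change 0.09), at 8 h without FGF6 library 3 (0.08), and at 24 h without vehicle library 1 (0.08). The other alpha subunits, Psma2, Psma3, Psma4, and Psma5, were higher at 24 h by 0.25 to 0.49 on the log2 scale.

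The 7 beta subunits of the constitutive core were split at 4 h, with 2 higher and 2 lower, and were all higher at 24 h, by 0.10 to 0.52 on the log2 scale. Their counts at 4 h were near the shares of all genes tested, 28.6% higher and 34.2% lower. Psmb5, Psmb6, and Psmb7 carry the chymotrypsin-like, caspase-like, and trypsin-like activities. At 24 h, Psmb5 was at 36.6, 36.1, and 33.3 CPM in vehicle and 49.2, 53.3, and 49.1 CPM with FGF6. In Psmb6, whose promoter window is printed above, the level was 146, 144, and 145 CPM in vehicle and 176, 186, and 179.8 CPM with FGF6. For Psmb7, it was 103, 105, and 108 CPM in vehicle and 141, 153, and 141 CPM with FGF6. In all 3 genes the FGF6 libraries were above the vehicle libraries, with log2 fold changes of 0.51 ± 0.05 for Psmb5, 0.31 ± 0.03 for Psmb6, and 0.46 ± 0.04 (SE, n = 3 per group) for Psmb7. In Psmb7, 405 exonic bases overlap Nek6 on the other strand, and in Psmb5, 109 of 899 exonic bases overlap Mir686 on the same strand. The largest beta increase was that of Psmb3, a structural subunit (0.52 ± 0.05, FDR = 3.6e-10), and the smallest that of Psmb4 (0.10 ± 0.03, FDR = 0.007). The smaller rise of Psmb4 at 8 h was not called without FGF6 library 3 or vehicle library 3 (0.07 in either case), and that of Psmb7 at 4 h was not called without vehicle library 1 (0.09). Psmb1 turned from lower to higher, with -0.12 ± 0.04, FDR = 0.01 at 4 h and 0.13 ± 0.04, FDR = 0.0024 at 24 h, although its early calls depended on single libraries. At 4 h it was at -0.10, -0.05, and -0.09 without FGF6 library 1, 2, or 3 and at -0.07 without vehicle library 3, and at 8 h at -0.10 and -0.07 without FGF6 library 1 or 3 and at -0.08 without vehicle library 1 or 3, none of which passed the threshold. The call of Psmb6 at 4 h (-0.08 ± 0.04, FDR = 0.0497) was lost with DESeq2, with a replicate block, and on leaving out any library, with log2 fold changes of -0.09 to -0.01, and its call at 8 h was lost without FGF6 library 3 or vehicle library 3, at 0.06 in either case.

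The 6 ATPases of the 19S base, Psmc1 to Psmc6, unfold the substrate. The counts higher were 4, 5, and 6 at 4, 8, and 24 h, with 1 lower at 4 h, and at 24 h they had a median log2 fold change of 0.50. Psmc6 (0.61 ± 0.04, FDR = 1.8e-13) and Psmc4 (0.60 ± 0.03, FDR = 1.2e-14) had the largest increases at 24 h. Psmc3 (chr2:91054009-91066369, plus strand) went the other way first. At 4 h, it was at 176, 178, and 188 CPM in vehicle and 164, 156, and 154 CPM with FGF6, with all FGF6 libraries lower (-0.19 ± 0.03, FDR = 3.5e-05). At 8 h, it was at 206, 206, and 196 CPM in vehicle and 186, 195, and 195 CPM with FGF6, a difference that did not pass the threshold (-0.08 ± 0.03, FDR = 0.0526). At 24 h, Psmc3 was at 208, 216, and 209.7 CPM in vehicle and 235, 242, and 241 CPM with FGF6, with all FGF6 libraries higher (0.18 ± 0.03, FDR = 5.2e-05). The difference in its FGF6 effect between 24 and 8 h was 0.25 ± 0.05, FDR = 0.00013. An exonic stretch of 215 bases of Psmc3 overlaps Slc39a13 on the other strand, and since the strand setting of the counting is not given, reads there cannot be assigned with certainty.

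Of the 11 non-ATPase subunits of the 19S particle, 8 were already higher at 4 h, and all 11 were higher at 8 and 24 h, with median log2 fold changes of 0.19, 0.27, and 0.49. Psmd14 (chr2:61711694-61800376, plus strand), the deubiquitinase that removes ubiquitin chains at the mouth of the particle, had the largest log2 fold change of all members at 24 h. Its level then was 109, 110.4, and 114 CPM in vehicle and 179, 175, and 173 CPM with FGF6. Vehicle libraries stayed between 107 and 119.7 CPM over the whole time course, while all FGF6 libraries were higher at each time. The fold changes were 0.20 ± 0.04, FDR = 3.2e-05 at 4 h, 0.34 ± 0.04, FDR = 7.7e-09 at 8 h, and 0.66 ± 0.04, FDR = 1.6e-14 at 24 h.

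Psmd7 (chr8:107580381-107588464, minus strand), the partner that forms a dimer with Psmd14, rose earlier. The level at 4 h was 208, 212, and 215 CPM in vehicle and 264, 270.1, and 258 CPM with FGF6. At 8 h, it was at 198, 199, and 194 CPM in vehicle and 270.3, 271, and 274 CPM with FGF6. At 24 h, the values were 198, 203, and 198 CPM in vehicle and 301, 307, and 310.1 CPM with FGF6. The groups were apart at each time, with 0.32 ± 0.03, FDR = 5.6e-10 at 4 h, 0.46 ± 0.03, FDR = 2.5e-13 at 8 h, and 0.62 ± 0.03, FDR = 5.7e-16 at 24 h.

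Psmd12 (chr11:107479484-107504362, plus strand), a scaffold subunit of the 19S lid, was at 115, 112, and 119 CPM in vehicle and 182, 175, and 179.7 CPM with FGF6 at 24 h. Its FGF6 libraries were higher at each time, by 0.19 ± 0.03, FDR = 1.8e-05 at 4 h, 0.37 ± 0.03, FDR = 1.7e-10 at 8 h, and 0.64 ± 0.03, FDR = 2.4e-15 at 24 h. Psmd2, the large base subunit that docks ubiquitin receptors, differed by 0.58 ± 0.03, FDR = 4.1e-16 at 24 h, and Psmd4, itself a ubiquitin receptor, by 0.45 ± 0.04, FDR = 3.9e-11. Psmd6, a lid subunit, had a smaller rise, and its 8 h call (0.10 ± 0.03, FDR = 0.011) was lost without vehicle library 2 (0.08). Psmd8 and Psmd3 had most of their rise by 4 or 8 h. Psmd8 was at 0.23, 0.27, and 0.28, and Psmd3 at 0.26, 0.43, and 0.47, on the log2 scale of the fold change at the 3 times. Their difference between 24 and 8 h was 0.01 ± 0.05, FDR = 0.9 and 0.04 ± 0.06, FDR = 0.63, respectively.

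**Figure D3:**
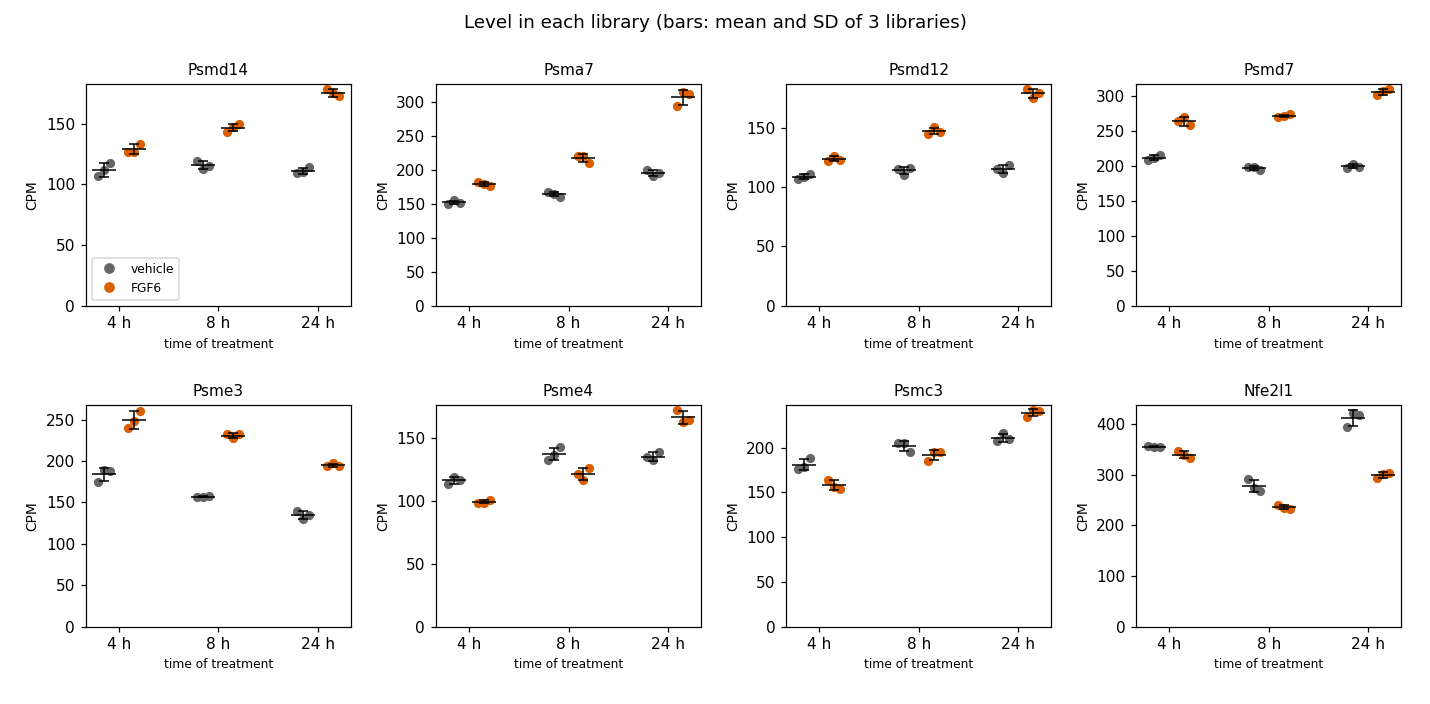
CPM of 8 members in each library at 4, 8, and 24 h, vehicle in gray and FGF6 in orange, with mean and SD of 3 libraries. In the upper row, 4 subunits are higher with FGF6 in every library at every time, and in the lower row Psme3 is higher throughout, Psme4 and Psmc3 are lower at first and higher at 24 h, and Nfe2l1 is lower, by the largest amount at 24 h.

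The chaperones that build the core, Pomp and the PAC proteins encoded by Psmg1 to Psmg4, also rose. Of these 5 genes, 3 were higher at 4 h and all 5 at 8 and 24 h, with median log2 fold changes of 0.13, 0.23, and 0.21. The smallest rises were the least secure. Psmg1 was not called at 4 h without vehicle library 1 or 2 (0.11 and 0.09), nor Psmg2 at 24 h without vehicle library 1 (0.11). Pomp (chr5:147860461-147876456, plus strand), which matures the catalytic beta subunits, was at 122, 128, and 131 CPM in vehicle and 158, 154, and 151 CPM with FGF6 at 4 h. It was at 133, 137, and 144 CPM in vehicle and 163, 164, and 166 CPM with FGF6 at 8 h and at 129, 142, and 135 CPM in vehicle and 169, 186, and 178 CPM with FGF6 at 24 h. The groups were apart at each time, with 0.28 ± 0.04, FDR = 1.1e-06, 0.25 ± 0.04, FDR = 4.7e-06, and 0.40 ± 0.04, FDR = 2.1e-09 at 4, 8, and 24 h.

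Psmg3 (chr5:139823592-139826885, minus strand), a PAC chaperone, peaked at 8 h. Its values at 4 h were 18.97, 21.5, and 22.6 CPM in vehicle and 23.3, 23.2, and 22.3 CPM with FGF6, and the groups overlapped (0.13 ± 0.06, FDR = 0.072). At 8 h, it was at 18.1, 18.7, and 17.1 CPM in vehicle and 23.7, 23.9, and 25.4 CPM with FGF6, with the groups apart (0.43 ± 0.06, FDR = 6.7e-07). At 24 h, it was at 17.6, 16.8, and 16.8 CPM in vehicle and 19.4, 20.1, and 18.9 CPM with FGF6, still apart but closer (0.19 ± 0.06, FDR = 0.0084). The difference in the effect was 0.31 ± 0.09, FDR = 0.0077 from 4 to 8 h and -0.24 ± 0.09, FDR = 0.029 from 8 to 24 h. In Psmg3, 280 exonic bases overlap Gm26938 on the same strand.

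Of the 3 chaperones of the 19S base, Psmd5, Psmd9, and Psmd10, the first pair was higher at 8 and 24 h. At 4 h, Psmd5 differed by -0.08 ± 0.04, FDR = 0.055 and Psmd9 by 0.06 ± 0.04, FDR = 0.2, neither past the threshold. At 24 h, the differences were 0.20 ± 0.04, FDR = 3.3e-05 for Psmd5 and 0.23 ± 0.04, FDR = 1.5e-05 for Psmd9. The 8 h call of Psmd5 was lost without FGF6 library 3 or vehicle library 2 (0.08 and 0.07). An exonic stretch of 1849 bases of Psmd9 overlaps Gm26745 on the other strand. Psmd10, also known as gankyrin, was at 49.5, 50.6, and 53.6 CPM in vehicle and 49.5, 47.7, and 49.9 CPM with FGF6 at 24 h, with overlapping groups (-0.06 ± 0.05, FDR = 0.29). Its 95% interval at 24 h ran from -0.17 to 0.04 on the log2 scale.

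The members that fell at 24 h were not subunits of the constitutive particles. Psmb10 (chr8:105935735-105938444, minus strand), the interferon-induced counterpart of Psmb7 in the immunoproteasome, fell most. Libraries at 4 h held 75.5, 99.03, and 110.2 CPM in vehicle and 77.9, 83.2, and 60.1 CPM with FGF6, with overlapping groups (-0.36 ± 0.11, FDR = 0.0049). This call was lost when FGF6 library 3 or vehicle library 3 at 4 h was left out, with log2 fold changes of -0.20 and -0.24. At 8 h, Psmb10 was at 82.4, 95.01, and 102 CPM in vehicle and 58.3, 50.5, and 50.99 CPM with FGF6, with no overlap (-0.80 ± 0.11, FDR = 3.8e-07). At 24 h, it was at 104, 117, and 101 CPM in vehicle and 19.8, 20.3, and 20.6 CPM with FGF6 (-2.41 ± 0.12, FDR = 2e-15), with all FGF6 libraries far below all vehicle libraries.

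Psmb8 and Psmb9, the other catalytic subunits of the immunoproteasome, are not members by the rule but form its set with Psmb10. At 24 h, Psmb9 was at 31.98, 37.8, and 32.5 CPM in vehicle and 1.13, 0.607, and 1.39 CPM with FGF6 (-5.03 ± 0.19, FDR = 4.8e-18). Psmb8 was at 32.2, 34.5, and 33.004 CPM in vehicle and 1.09, 1.39, and 1.54 CPM with FGF6 (-4.63 ± 0.22, FDR = 6.1e-16). The FGF6 libraries held only 17 to 42 counts of either gene at 24 h, all below every vehicle library. Set against its constitutive counterpart within each library, the ratio of CPM of Psmb10 to Psmb7 at 24 h was 1.02 ± 0.0940 in vehicle and 0.140 ± 0.00678 (SD, n = 3) with FGF6, a 7.30-fold lower ratio. For Psmb9 to Psmb6, the ratio was 0.235 ± 0.0244 in vehicle and 0.00582 ± 0.00231 with FGF6, and for Psmb8 to Psmb5 it was 0.942 ± 0.0565 and 0.0266 ± 0.00460. At 4 h, the same ratios were 1.40-fold, 1.32-fold, and 1.24-fold lower with FGF6. The libraries of the groups then overlapped for Psmb9 to Psmb6 (0.203 ± 0.0318 in vehicle and 0.153 ± 0.0209 with FGF6). They also overlapped for Psmb8 to Psmb5 (0.888 ± 0.188 and 0.718 ± 0.129) but not for Psmb10 to Psmb7 (1.17 ± 0.158 and 0.838 ± 0.122). All of these are changes of a ratio between genes of different length and carry no statement on which subunit was more abundant.

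The PA28 activator caps the core in place of the 19S particle, as a heptamer of alpha and beta subunits encoded by Psme1 and Psme2 or of gamma subunits encoded by Psme3. Psme1 (chr14:55578123-55581529, plus strand) and Psme2 (chr14:55587441-55591113, minus strand) are neighbors. At 4 h, Psme1 was at 84.6, 100.1, and 107 CPM in vehicle and 94.8, 106, and 82.8 CPM with FGF6, with overlapping groups (-0.04 ± 0.08, FDR = 0.71). At 8 h, it was at 94.4, 96.8, and 108 CPM in vehicle and 80.4, 71.1, and 74.9 CPM with FGF6, and at 24 h at 110.2, 119, and 107 CPM in vehicle and 46.1, 48.5, and 49.95 CPM with FGF6. The groups no longer overlapped, with -0.40 ± 0.08, FDR = 4.8e-05 at 8 h and -1.22 ± 0.08, FDR = 3.8e-13 at 24 h.

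Psme2 gave similar fold changes. At 4 h, its values were 52.5, 59.7, and 63.8 CPM in vehicle and 56.8, 60.3, and 50.8 CPM with FGF6, with overlap (-0.06 ± 0.07, FDR = 0.46). At 8 h, they were 62.9, 65.5, and 72.3 CPM in vehicle and 51.8, 46.4, and 51.8 CPM with FGF6, and at 24 h, 62.003, 72.9, and 72.4 CPM in vehicle and 25.1, 25.9, and 25.03 CPM with FGF6. The FGF6 libraries were lower in both comparisons (-0.42 ± 0.07, FDR = 1.2e-05 and -1.45 ± 0.08, FDR = 7e-15). The sign of the 4 h difference in Psme1 and Psme2 turned when single libraries were left out. Psme2b (chr11:48945354-48946190, minus strand), a gene of similar name that may share reads with Psme2, was close to 1 CPM, with 8 to 47 counts per library. At 24 h, it was at 1.65, 1.24, and 1.56 CPM in vehicle and 0.292, 0.572, and 0.477 CPM with FGF6 (-1.71 ± 0.31, FDR = 2.6e-05), a value that is uncertain for this reason.

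Psme3 (chr11:101316213-101323537, plus strand), the nuclear PA28 gamma, rose instead. At 4 h, it was at 175, 189, and 188 CPM in vehicle and 239.6, 248, and 261 CPM with FGF6 and had the largest increase of all members (0.44 ± 0.04, FDR = 5.5e-11). At 8 h, its levels were 156, 157, and 157 CPM in vehicle and 232, 228, and 232 CPM with FGF6 (0.56 ± 0.04, FDR = 3.8e-13). At 24 h, they were 139.6, 129.9, and 135 CPM in vehicle and 194, 197, and 194 CPM with FGF6 (0.53 ± 0.04, FDR = 8.7e-13). The groups did not overlap at any time, and Psme3 fell with time in both arms, in vehicle by 0.23 from 4 to 8 h and by 0.22 from 8 to 24 h on the log2 scale.

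Psme4 (chr11:30771726-30880361, plus strand), which encodes the activator PA200, reversed. Its level at 4 h was 113, 119, and 116 CPM in vehicle and 98.5, 98.6, and 101 CPM with FGF6, with FGF6 libraries lower (-0.23 ± 0.04, FDR = 5.9e-06). At 8 h, it was at 133, 136, and 143 CPM in vehicle and 121, 117, and 126 CPM with FGF6 (-0.18 ± 0.04, FDR = 0.00011). At 24 h, the values were 135, 132, and 139 CPM in vehicle and 172, 163, and 164 CPM with FGF6, with FGF6 libraries higher (0.30 ± 0.04, FDR = 4.1e-08). The difference in its effect from 8 to 24 h was 0.48 ± 0.05, FDR = 2.6e-08.

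**Figure D4:**
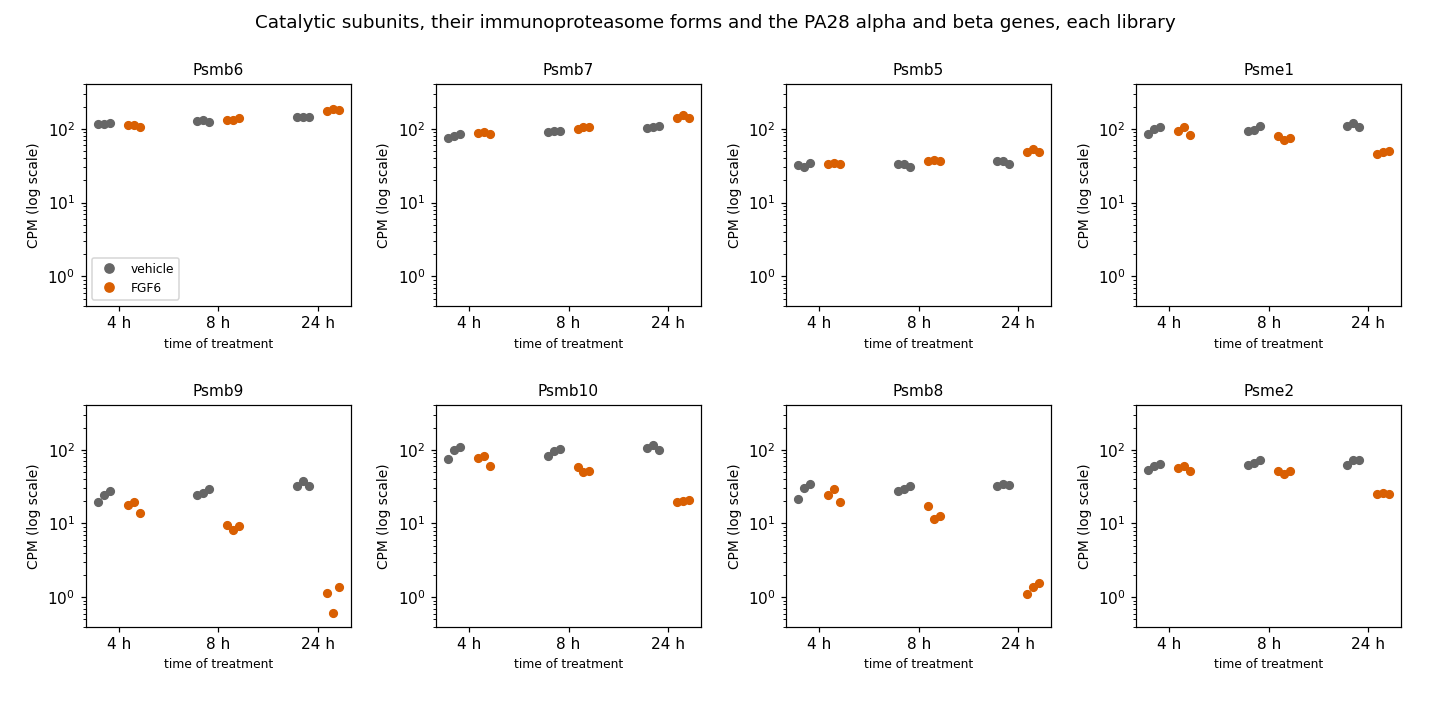
CPM on a log axis in each library for the constitutive catalytic subunits Psmb6, Psmb7, and Psmb5 (upper row) above their immunoproteasome counterparts Psmb9, Psmb10, and Psmb8 (lower row), and for Psme1 and Psme2 (right), vehicle in gray and FGF6 in orange. At 24 h, the upper 3 catalytic genes are higher and the lower 3 are lower with FGF6, and Psmb10 lies at 19.8 to 20.6 CPM against 101 to 117 CPM in vehicle.

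At 8 and 24 h, the fall of Psmb10, Psme1, and Psme2 was shared by other genes of antigen processing. In a list of 18 genes for the immunoproteasome, peptide loading, MHC class I, and the interferon response, which holds these 3 members, 1 was higher and 6 were lower at 4 h, 17 were lower at 8 h, and 18 of 18 at 24 h, with medians of -0.15, -0.93, and -2.55 on the log2 scale. Of all genes tested, 28.6% were higher and 34.2% lower at 4 h, 32.4% and 38.4% at 8 h, and 35.9% and 37.9% at 24 h. At 4 h, the lower genes of the list were thus about as frequent as among all genes. Irf2, an interferon regulatory factor, was the gene of the list that was higher at 4 h (0.60 ± 0.05, FDR = 1.8e-10). Irf1, the activator that drives immunoproteasome genes, was at 64.2, 80.9, and 83.1 CPM in vehicle and 55.9, 59.9, and 48.997 CPM with FGF6 at 4 h and at 114, 119, and 116 CPM in vehicle and 29.3, 29.3, and 32.2 CPM with FGF6 at 24 h. It was lower in every FGF6 library at both times (-0.47 ± 0.08, FDR = 2.6e-05 and -1.94 ± 0.09, FDR = 1.9e-16). Ifit1, an interferon-induced gene, had a log2 fold change of -2.16 ± 0.19 (SE, n = 3 per group) at 8 h. Its vehicle libraries at 8 h were spread from 342 to 571 CPM and its FGF6 libraries from 91.7 to 117 CPM, so that the vehicle level itself varied between libraries. Of 4 macrophage and leukocyte markers, Ptprc and Adgre1 had 2 counts at most in any library, and the summed level of all 4 was 12.9 to 13.6 CPM in vehicle and 43.9 to 46.6 CPM with FGF6 at 24 h. That sum came from Cd14, with group means of 7.43 CPM in vehicle and 41.6 CPM with FGF6, and from Cd68, with 5.83 and 3.24 CPM. The part of such cells in these results was not tested.

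Nfe2l1 (chr11:96817414-96829968, minus strand), the factor that drives subunit genes, did not rise with them at the RNA level. At 4 h, it was at 356, 355, and 355 CPM in vehicle and 347, 340.02, and 333 CPM with FGF6. The difference did not pass the threshold (-0.06 ± 0.03, FDR = 0.11), but did so when library sizes alone or upper-quartile factors were used, with log2 fold changes of -0.16 and -0.12. At 8 h, Nfe2l1 was at 292, 274, and 268 CPM in vehicle and 239.7, 235, and 232 CPM with FGF6, lower in all FGF6 libraries (-0.24 ± 0.03, FDR = 8.5e-07). At 24 h, it was at 394, 423, and 419 CPM in vehicle and 294, 301, and 304 CPM with FGF6 (-0.46 ± 0.03, FDR = 5.8e-12). The level changed with time in both arms, being lowest at 8 h, and the FGF6 effect at 24 h differed from that at 8 h by -0.22 ± 0.05, FDR = 0.0006. Its activity is set mainly after translation, which counts of RNA do not measure.

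Of 20 other genes of the NFE2L1 pathway tested, the counts higher and lower were 10 and 6 at 4 h, 10 and 7 at 8 h, and 11 and 8 at 24 h. The shares of all genes tested were 28.6% and 34.2%, 32.4% and 38.4%, and 35.9% and 37.9% at these times, so that the lower genes of the list were about as frequent as among all genes. The medians were 0.12, 0.13, and 0.22 on the log2 scale. The genes that were higher included the partners. Maff, a small MAF protein, was at 18.7, 19.1, and 16.3 CPM in vehicle and 65.9, 62.5, and 63.5 CPM with FGF6 at 24 h (1.82 ± 0.07, FDR = 2.3e-18). Mafk, another small MAF, was at 24.5, 28.2, and 27.5 CPM in vehicle and 56.5, 64.7, and 56.5 CPM with FGF6 at 4 h (1.15 ± 0.06, FDR = 5.4e-14) but was slightly lower by 24 h (-0.17 ± 0.07, FDR = 0.032). Nfe2l2, the related factor NRF2, was at 121, 118, and 122 CPM in vehicle and 205, 193, and 185 CPM with FGF6 at 24 h, with no overlap (0.69 ± 0.04, FDR = 1e-14), and was higher at 4 and 8 h as well, by 0.54 and 0.57 on the log2 scale.

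Zfand2a, a proteasome-binding zinc finger protein induced by proteotoxic stress, was higher at each time. At 24 h, it was at 66.2, 65.7, and 66.6 CPM in vehicle and 222, 236, and 231 CPM with FGF6 (1.79 ± 0.03, FDR = 1.8e-24), and at 4 h at 76.8, 75.5, and 75.1 CPM in vehicle and 165, 166, and 166 CPM with FGF6 (1.13 ± 0.03, FDR = 5.4e-20). Nfe2l3, a further member of the NFE2L family, was near 1 CPM in vehicle and at 4.60, 3.54, and 3.49 CPM with FGF6 at 24 h (1.91 ± 0.19, FDR = 2.1e-09). Akirin2, which carries proteasomes into the nucleus, was higher at 24 h by 0.46 on the log2 scale, and Vcp, the ATPase that extracts NFE2L1 from the membrane, by 0.39.

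The genes of the pathway that were lower included enzymes of the endoplasmic reticulum. Ngly1, which deglycosylates NFE2L1 as it is activated, was at 30.6, 32.6, and 34.6 CPM in vehicle and 18.8, 15.4, and 17.1 CPM with FGF6 at 24 h (-0.93 ± 0.07, FDR = 7.2e-12). Sel1l, a component of the ubiquitin ligase complex that turns NFE2L1 over at the membrane, was at 138, 146, and 152 CPM in vehicle and 92.1, 101, and 92.8 CPM with FGF6 (-0.61 ± 0.04, FDR = 1.8e-12). Both were lower in every FGF6 library at all 3 times. Syvn1, the ligase itself, had a log2 fold change of -0.34 at 24 h, whereas Ddi2, the protease that cleaves NFE2L1, was higher by 0.23.

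**Figure D5:**
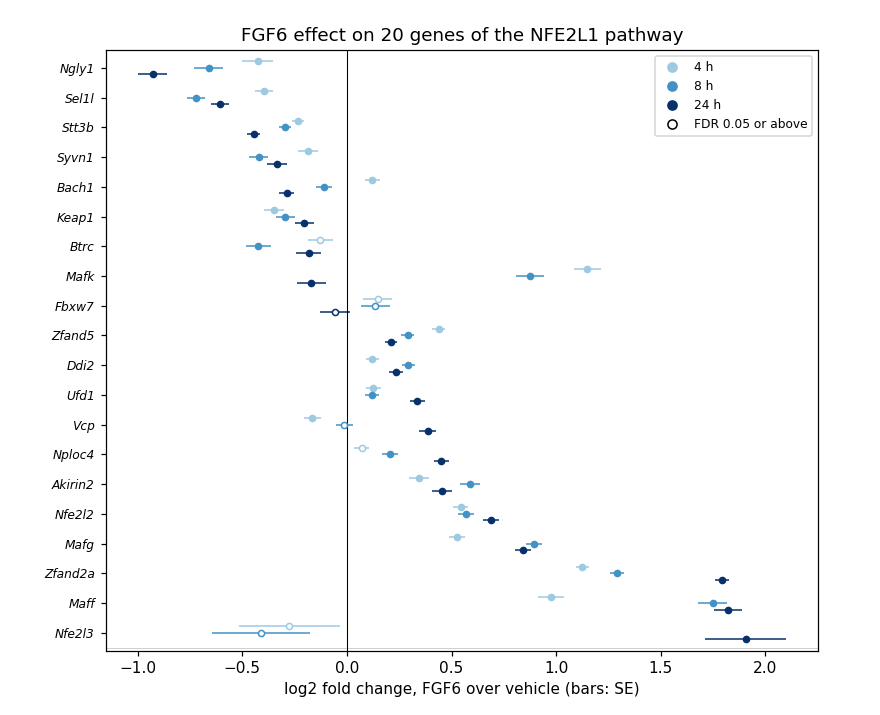
Log2 fold change, FGF6 over vehicle, of 20 genes of the NFE2L1 pathway at 4, 8, and 24 h (light to dark blue), ordered by the value at 24 h, with standard errors of 3 against 3 libraries and open points at an FDR of 0.05 or above. Ngly1 and Sel1l lie to the left of 0 at every time, Zfand2a and Maff to the right, and Mafk moves from right to left.

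Another list held 32 tested genes that deliver ubiquitinated proteins to the proteasome or work on it. Of these, 16 were higher and 6 lower at 4 h, 18 and 6 at 8 h, and 24 and 3 at 24 h. The medians were 0.13, 0.15, and 0.35 on the log2 scale. Of all genes tested, 28.6% were higher and 34.2% lower at 4 h, 32.4% and 38.4% at 8 h, and 35.9% and 37.9% at 24 h. The list includes Pitrm1, a mitochondrial peptidase that does not belong there. Ubqln4, a shuttle that brings substrates to the proteasome, was at 107, 102, and 107 CPM in vehicle and 194, 199.7, and 197 CPM with FGF6 at 24 h (0.90 ± 0.03, FDR = 6.6e-18). Uchl5 and Usp14, the deubiquitinases bound to the 19S particle, were higher at 24 h by 0.85 and 0.65. Rps27a, a fusion of ubiquitin and a ribosomal protein, was higher at 24 h by 1.00, at a level of only 7.72 to 16.6 CPM at that time, and this gene has many near copies in the genome that could take its reads. Nub1, an interferon-induced adaptor that sends NEDD8 and its conjugates to the proteasome, was lower at 24 h, at 115, 121, and 126 CPM in vehicle and 61.3, 61.98, and 65.99 CPM with FGF6 (-0.94 ± 0.06, FDR = 1.7e-13). Ubb, a polyubiquitin gene, was higher at 24 h by 0.24 on the log2 scale. At 4 h, the largest decreases were those of Rbx1, a ring subunit of cullin ligases (-0.21 ± 0.04, FDR = 0.0001), and Ecpas, a proteasome adaptor (-0.16 ± 0.03, FDR = 0.0001), and neither difference passed the threshold at 24 h. Cul4b, a cullin, was lower at 8 h (-0.24 ± 0.03, FDR = 2.9e-07).

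The FGF6 effect differed from that at 24 h in most members, and between 4 and 8 h in fewer. From 4 to 8 h, the effect became more positive in 15 members and more negative in 4, against 15.5% and 15.1% of all genes tested. From 8 to 24 h, it became more positive in 29 and more negative in 6, against 22.6% and 22.5%. From 4 to 24 h, these counts were 31 and 5, against 28.3% and 25.2%. Without vehicle library 3 at 24 h, 33 members in all differed from 8 to 24 h and 35 from 4 to 24 h. Between 8 and 24 h, the largest positive differences among subunits were those of Psmc6 (0.42 ± 0.05, FDR = 4.9e-07) and Psma1 (0.40 ± 0.05, FDR = 1.6e-07).

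The vehicle cells were not constant over the time course. From 4 to 8 h in vehicle, 17 members were higher and 6 lower, against 21.2% and 21.7% of all genes, and from 8 to 24 h 18 were higher and 7 lower, against 25.5% and 23.7%. In FGF6-treated cells, 29 were higher and 5 lower from 4 to 8 h, against 24.1% and 24.0%, and 34 were higher and 9 lower from 8 to 24 h, against 31.1% and 31.2%. In vehicle, the summed core level increased from 1563 ± 46.0 CPM at 4 h to 1905 ± 17.7 CPM at 24 h, whereas the 19S sum moved only from 2821 ± 31.7 to 2928 ± 3.77 CPM (mean ± SD, n = 3). The culture time that passed and the time of the vehicle treatment cannot be told apart in this design.

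Levels between members could be compared per kilobase of annotated exons only. Averaged over all libraries, the subunits ranged from 10.5 RPKM (counts per kilobase of exons, scaled as CPM) for Psma3 to 176 RPKM for Psmb4. Psma6, Psmb2, Psmc5, Psmd2, and Psmd7 followed, at 107 to 139 RPKM. Psmf1, which encodes the proteasome inhibitor PI31, was at 6.29 RPKM and Psmg3 at 7.07 RPKM. The length used was the union of all annotated exons, including those of rare transcripts, so that such a difference between genes may come from the annotation. Psmf1 was higher at 4 h (0.17 ± 0.05, FDR = 0.0045), with differences of 0.09 and 0.10 on the log2 scale at 8 and 24 h that did not pass the threshold. Psmc3ip, which carries a proteasome-like symbol but acts in meiotic recombination, was taken by its name and was higher at 24 h (0.45 ± 0.06, FDR = 1.4e-07).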

How the data were processed

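RNA of immortalized murine brown preadipocytes was sequenced in 18 libraries, 3 for each of 6 groups given by the labels. Before depositing raw counts per gene, the authors mapped reads by STAR (genome build GRCm38.p4) and counted them over GENCODE genes by featureCounts of Subread. Tool versions, the annotation release, the strand setting, and the treatment of reads mapping to several places are not given in the sources used here. Symbols and positions came from GENCODE M21 on GRCm38, which held 98.5% of the identifiers. Starting from the deposited counts, filterByExpr kept 15071 of 48023 genes, which were scaled by TMM and fitted with the quasi-likelihood model of edgeR 4.0.16 in R 4.3.3 to all 18 libraries, without covariates. Benjamini-Hochberg adjustment ran over all genes tested, and calls were made at an FDR under 0.05. Standard errors were derived from the F statistic of each log2 fold change. Intervals are 1.96 standard errors on either side. Members and gene lists were chosen with earlier results of these data known. Library values are given for Nfe2l1, Pomp, Psmb10, and, at each time, the 3 members that rose most and the 3 that fell most, and for other lists for the 2 genes at either end, beside Nfe2l2, Psmb8, and Psmb9. A result that this rule would name is not reported here. Psmb5 to Psmb7, Psmd10, and some further genes were named after their values were seen. In simulated counts for the 24 h comparison, 75 of 98 tested genes changed by 0.5 on the log2 scale were recovered, and 88 of 97 changed by 1. Of 14640 genes in that fit, 9 that were left unchanged were called. The simulation gave every gene the same dispersion, kept means equal between groups otherwise, and changed few genes, equally in both directions. Most genes were called in the real 24 h comparison, so that these figures do not measure its error rate. Alternatives were DESeq2 1.42.0, limma 3.58.1 with voom, library sizes alone, upper-quartile factors, other filters, fewer libraries in the fit, a replicate block, an FDR under 0.25, and fits with each library left out in turn. Counts from overlapping genes or near-identical copies are uncertain. Pairs of libraries of a group differed by more than counting noise, vehicle library 3 at 24 h by the most, and none were merged.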

Additional observations from a re-analysis of the deposited data

Results flagged for a closer look

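The effect of FGF6 differed between times, by the interaction test of edgeR, in 19 of 48 members from 4 to 8 h and in 35 from 8 to 24 h. Of all genes tested, the effect became more positive in 15.5% and more negative in 15.1% from 4 to 8 h. From 8 to 24 h, these shares were 22.6% and 22.5%. Groups of 3 libraries were too small to test single members for an outlying library. From 4 to 8 h, among the members given in full, the log2 effect increased by 0.31 in Psmg3, 0.18 in Psmd12, 0.17 in Psma7, 0.15 in Psmd7, and 0.14 in Psmd14, and changed by -0.44 in Psmb10, -0.37 in Psme1, -0.36 in Psme2, and -0.18 in Nfe2l1. From 8 to 24 h, it increased by 0.48 in Psme4, 0.32 in Psmd14, 0.27 in Psmd12, 0.25 in Psmc3, 0.25 in Psma7, 0.15 in Psmd7, and 0.15 in Pomp. Over the same interval, it changed by -1.73 in Psme2b, -1.60 in Psmb10, -1.03 in Psme2, -0.82 in Psme1, -0.24 in Psmg3, and -0.22 in Nfe2l1.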

How the results depend on the processing

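Of the 46 member calls at 24 h, 44 held under every alternative run, as did 33 of 43 at 8 h but only 12 of 27 at 4 h. At 4 h, 10 members were higher with library sizes alone and 12 with upper-quartile factors, and 10 were lower with library sizes alone and 3 when only the libraries compared were fitted, and leaving out single libraries gave 2 to 5 lower. The member median at 4 h was 0.0028 (library sizes alone), 0.047 (upper-quartile factors), 0.13 (DESeq2), 0.13 (at least 10 counts in every library), and 0.15 (only the libraries compared), and 0.063 to 0.14 with single libraries left out. At 8 h, it was 0.12, 0.14, 0.22, 0.20, and 0.22 in the same order. At 24 h, it was 0.41 with DESeq2, and 0.37 to 0.41 with single libraries left out. The cause was not tested. Among the members given in full, signs turned only where no call had been made. With single libraries left out, Psme2 at 4 h ranged from -0.138 to 0.0346, Psme1 at 4 h from -0.125 to 0.0857, and Psme2b from -0.0255 to 0.402 at 4 h and from -0.170 to 0.195 at 8 h. The lowest of the Psme2b values came without vehicle library 1 (4 h) and FGF6 library 3 (8 h), and the highest of Psme1 and Psme2 without FGF6 library 3. Psme1 at 4 h was 0.0064 with only the libraries compared, and Psme2b at 8 h was -0.0425 with library sizes alone and -0.0239 with upper-quartile factors. Replicate numbers are shared between groups, but deviations of same-numbered libraries correlated at -0.03 to 0.05, so that they were taken as numbers only. With the replicate block, 22 members were higher and 4 lower at 4 h, and the other member counts stayed within 1.5 times. Depth limited Psme2b, at 8 to 47 counts per library.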
